A study of Mus musculus with 2254 samples.

Results

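The genes described here encode the subunits of oxidative phosphorylation, chosen by symbol: entries starting with Nduf, Uqcr, Cox4 to Cox8, Atp5, mt-Nd, mt-Co, mt-Cytb or mt-Atp, plus Sdha, Sdhb, Sdhc and Sdhd, without symbols ending in -ps. The rule took 106 of the 30950 entries of the count table, 94 of them nuclear genes and 12 encoded in mitochondrial DNA. By role, 43 belonged to complex I, 4 to complex II, 9 to complex III, 21 to complex IV and 17 to complex V. The name rule also caught 7 complex I assembly factors (Ndufaf genes), the pair Atp5s and Atp5sl, and 3 pseudogene symbols, none of which are subunits. Ndufa4 and Ndufa4l2 were counted with complex IV. Expression was measured by Smart-seq2, a plate-based method that makes full-length cDNA from the polyadenylated RNA of single sorted cells, in 2254 cells from the brains of adult C57BL/6 mice. All cells came from a reporter line, SM22-Cre;Rosa26-stop-tdTomato, in which a Cre recombinase driven by a smooth muscle promoter switches on a red fluorescent protein. The knockout (KO) cells, 1127 on plates 043, 467 and 471, lacked Notch3, a receptor of mural cells of blood vessels, and the control (WT) cells, 1127 on plates 044, 468 and 469, carried the same reporter with Notch3 intact. No animal was named for any cell, so each genotype counted as 1 sample: no test was possible, and values are given for each plate, with means ± SD over plates that describe the plates only.

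Oxidative phosphorylation passes electrons from NADH (complex I) and succinate (complex II) through ubiquinone, complex III and cytochrome c to oxygen at complex IV, and ATP synthase (complex V) uses the proton gradient so formed to make ATP. Complexes I, III, IV and V are built from subunits of both genomes, the mitochondrial ones forming the proton-pumping cores, while complex II is nuclear throughout. Several complex IV subunits and the c-ring of ATP synthase exist as isoforms from separate genes, and in vascular mural cells Cox4i2 and Ndufa4l2 are known as isoforms linked to oxygen sensing and hypoxia.

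Of the 2254 cells, 2252 had at least 50000 counts and 1000 detected genes, with a median of 291913 counts, 50570 at the lowest, and plate medians from 250864 to 358168. Cells were classed by the mean log2(CPM + 1) of 6 markers per type, where CPM is a gene's counts scaled to the same total in every cell (counts per 1e6), requiring a score of at least 3 and a lead of at least 2. The smooth muscle-like class held 1131 cells (50.2%). Because a class is cut from a score it is a range: 80 of these cells lay within 1 unit above the required lead and 4 unassigned cells within 1 unit below it. Their median smooth muscle score was 10.0 and their median pericyte score 4.05, while fibroblast-like and ependymal-like cells had median smooth muscle scores of 4.22 and 4.17. The other classes were intermediate mural (83 cells, both smooth muscle and pericyte scores high), pericyte-like (25), fibroblast-like (142), ependymal-like (156), endothelial-like (164), astrocyte-like (327), macrophage/microglia-like (42) and oligodendrocyte-like (15), and 160 cells stayed unassigned. The last classes named here were uneven: astrocyte-like, endothelial-like and macrophage/microglia-like cells reached 10 cells on WT plates 468 and 469 only, so class sizes were not compared. Among smooth muscle-like cells, Notch3 itself averaged 70.6 (plate 043), 95.7 (467) and 113 CPM (471) in KO and 192 (044), 721 (468) and 1109 CPM (469) in WT. The plate labelled WT 044 was thus nearer to the KO plates than to the other WT plates, and which part of Notch3 the allele removes is not given in the sources used here.

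Among the 12 mitochondrially encoded members, counts per gene spanned from 965 (mt-Co3, a core subunit of complex IV) to 2126056 (mt-Cytb, the core of complex III) over all cells. The low ones matched nuclear gene models almost base for base, so these sequences are shown first. Every 40-base window of each mitochondrial transcript was compared with all other gene models of GENCODE M21 (mouse build GRCm38). For mt-Co3 99.9% of the windows also lay in another model, for mt-Atp6 99.5%, for mt-Nd4l 98.8% and for mt-Nd3 98.1%. The shared models are unprocessed pseudogenes side by side on chromosome 1. Gm28437 (chr1:24613189-24613971, minus strand) aligned to mt-Co3 over 783 bases with 0 differences, Gm10925 to mt-Atp6 over 678 bases with 0, Gm10222 to mt-Nd4l over 294 bases with 0 and Gm28438 to mt-Nd3 over 345 bases with 1. The first 80 bases of mt-Co3 (chrM:8607-8686, plus strand) and of its chromosome 1 copy (chr1:24613892-24613971, minus strand) are identical:
mt-Co3: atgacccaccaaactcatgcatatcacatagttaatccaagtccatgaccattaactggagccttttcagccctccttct
Gm28437: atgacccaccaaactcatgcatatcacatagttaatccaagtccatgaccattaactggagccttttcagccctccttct

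By contrast, 1.36% of the windows of mt-Cytb were shared, and its closest nuclear copy, the processed pseudogene Gm11410 on chromosome 4, differed at 81 of 1142 aligned bases. In the stretch below (chrM:14146-14225 and chr4:80003990-80004069, both on the plus strand), capitals mark the 5 bases at which the gene and the copy differ:
mt-Cytb: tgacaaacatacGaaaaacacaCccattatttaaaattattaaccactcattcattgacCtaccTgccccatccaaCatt
Gm11410: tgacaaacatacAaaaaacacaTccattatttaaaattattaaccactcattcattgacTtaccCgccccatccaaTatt

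mt-Co3, mt-Nd4l and mt-Nd3 had 965, 975 and 3649 counts over all cells and never more than 3, 4 and 17 counts in a cell. mt-Atp6, as fully shared, had 80608 counts. mt-Nd4 and mt-Co1 shared 62.5% and 57.0% of their windows and had 740109 and 1382147 counts, while mt-Nd1 and mt-Nd6 shared none and had 1420807 and 236994. How the counting treated reads that fit several places is not given in the sources used here, and its part in these levels was not tested. The low values of mt-Co3, mt-Nd3 and mt-Nd4l are therefore not read as low expression, and mt-Co2 is not analysed here.

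**Figure D1:**
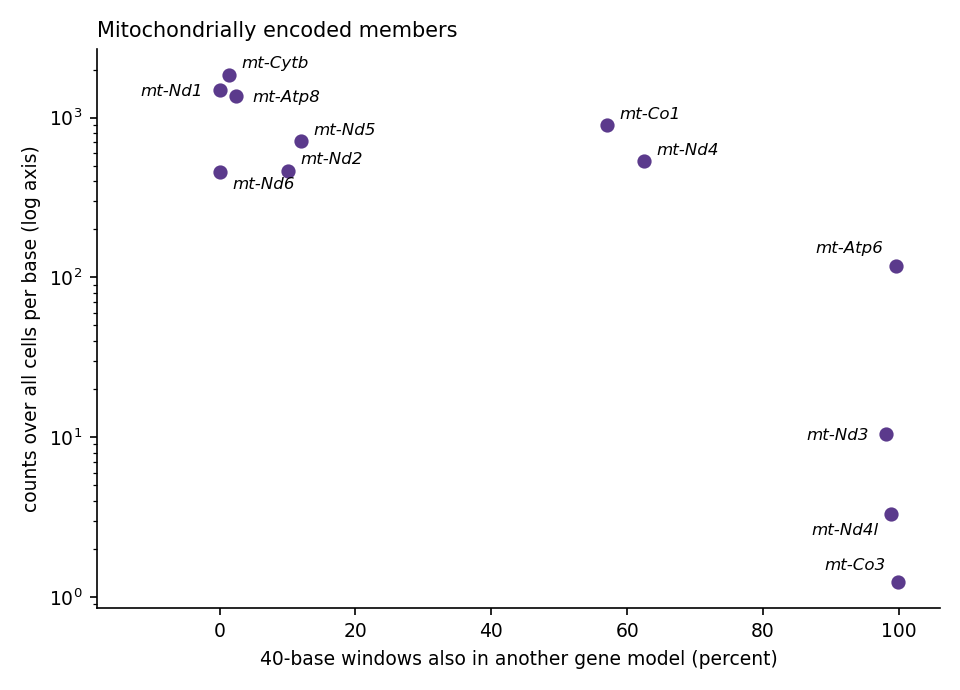
Counts over all cells per base of transcript (vertical, log axis) against the percentage of 40-base windows that also occur in another gene model (horizontal), 1 point for each of the 12 mitochondrially encoded members. mt-Co3, mt-Nd4l and mt-Nd3 stand at the lower right, with 98.1% to 99.9% of their windows shared, and mt-Cytb at the upper left with 1.36%.

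Upstream sequence from RefSeq (GRCm38.p6) was found for 76 of the 94 nuclear members, 3 of them through an older symbol. The 250 bases before each listed gene start were searched on both strands for motifs of factors known from respiratory chain promoters and for 2 others. A gene counted where any of its listed starts had a match, so genes with several starts had more chances. The 10 letters of NRF1, a main activator of these genes (GCGC, any base, TGCGC), were found for 14 of the 76 members (18.4%) and for 4.23% of all 27025 genes. The ETS letters CCGGAAG, bound by GABPA (also called NRF2), lay in 13 (17.1%) against 7.83% of all. The letters AAGATGGC of YY1 lay in 2 (2.63%, all genes 1.83%) and AAGGTCA of the oestrogen-related receptors in 5 (6.58%, all genes 4.70%). GTGGGAA, the core bound by RBPJ, the DNA-binding partner of Notch, lay in 3 (3.95%) against 6.18% of all. The hypoxia response core ACGTG lay in 17 (22.4%) against 18.5% of all. Of the members with an NRF1 or ETS match at the first listed start, 3 had a window there free of annotated exons. The 2 of these that return in the KO comparison are the complex I assembly factors Ndufaf1 (chr2:119662835-119663084, minus strand) and Ndufaf4 (chr4:24897833-24898082, plus strand). Their windows are shown with the ETS letters (Ndufaf1, starting 18 bases before the gene start) and the NRF1 letters (Ndufaf4, starting 113 bases before it) in capitals:
Ndufaf1: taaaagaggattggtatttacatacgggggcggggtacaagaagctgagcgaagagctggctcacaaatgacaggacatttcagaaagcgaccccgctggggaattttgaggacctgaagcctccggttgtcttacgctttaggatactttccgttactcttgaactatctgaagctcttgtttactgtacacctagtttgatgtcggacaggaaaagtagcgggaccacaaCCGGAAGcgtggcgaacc
Ndufaf4: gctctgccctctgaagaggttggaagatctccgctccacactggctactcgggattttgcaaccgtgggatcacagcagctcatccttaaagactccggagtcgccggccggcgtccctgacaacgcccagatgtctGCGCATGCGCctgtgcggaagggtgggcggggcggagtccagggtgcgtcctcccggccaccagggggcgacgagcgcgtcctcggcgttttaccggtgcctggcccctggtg
These matches describe the letters only, and binding was not measured.

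In smooth muscle-like cells 95 of the 106 members were measured, meaning a mean of at least 10 CPM over the 6 plates: 86 nuclear and 9 mitochondrial. The 11 others were mt-Co3, mt-Nd3, mt-Nd4l, the tissue isoforms Cox6a2, Cox6b2, Cox7a1, Cox7b2 and Cox8b, and the 3 pseudogene symbols. To compare genes, CPM was divided by transcript length. In complex I the nuclear subunits had a median of 139 CPM per kb, from 21.2 ± 5.8 for Ndufb4 to 495 ± 66 (SD, 6 plates) for Ndufb9, both accessory subunits. The mitochondrial complex I genes ran from 739 ± 104 CPM per kb for mt-Nd6 to 2574 ± 386 for mt-Nd1. The assembly factors were lower than most of the subunits they help to join, with a median of 19.2 CPM per kb, from 14.4 ± 6.9 (Ndufaf6) to 30.4 ± 6.2 (Ndufaf3) CPM per kb. In complex II Sdhb, the iron-sulphur subunit, had 212 ± 17 and Sdhd, a membrane anchor, 101 ± 18 CPM per kb. In complex III the range of nuclear genes was 134 ± 33 (Uqcrc2, a core protein) to 466 ± 67 (Uqcrh, the hinge protein) CPM per kb, with mt-Cytb at 3195 ± 391. In complex IV it was 81.5 ± 32.8 (Cox4i2) to 745 ± 96 (Cox8a), with mt-Co1 at 1526 ± 236. In complex V it was 87.4 ± 20.0 (Atp5j2) to 847 ± 117 (Atp5b, the catalytic beta subunit), with mt-Atp8 at 2379 ± 270.5 and mt-Atp6, whose sequence is shared, at 206 ± 24. Each measured mitochondrial gene other than mt-Atp6 was thus above the highest nuclear gene of its complex per length.

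Summed over the nuclear members, smooth muscle-like cells devoted 16346 ± 1428 CPM (SD, 6 plates) to oxidative phosphorylation, of which complex V took 5196 ± 554, complex I 5158 ± 468, complex IV 2760 ± 378, complex III 1605 ± 155 and complex II 1368 ± 128 CPM. The mitochondrial members took 1.37 ± 0.19% of counts (1.09% to 1.62%). Every other class compared had a lower nuclear sum than the smooth muscle-like cells of the same plates. The ratio was 0.931 (0.895 to 0.968, 3 plates) for intermediate mural, 0.777 on the 1 plate with 10 or more pericyte-like cells, 0.817 (0.712 to 0.937, 6 plates) for fibroblast-like and 0.724 (at most 0.777, 5 plates) for ependymal-like cells. On plates 468 and 469 it was 0.654 and 0.678 for astrocyte-like, 0.639 and 0.641 for endothelial-like and 0.540 and 0.588 for macrophage/microglia-like cells, lower value first, and on plate 468 it was 0.680 for oligodendrocyte-like cells. The smooth muscle-like cells are the common reference of all these ratios.

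**Figure D2:**
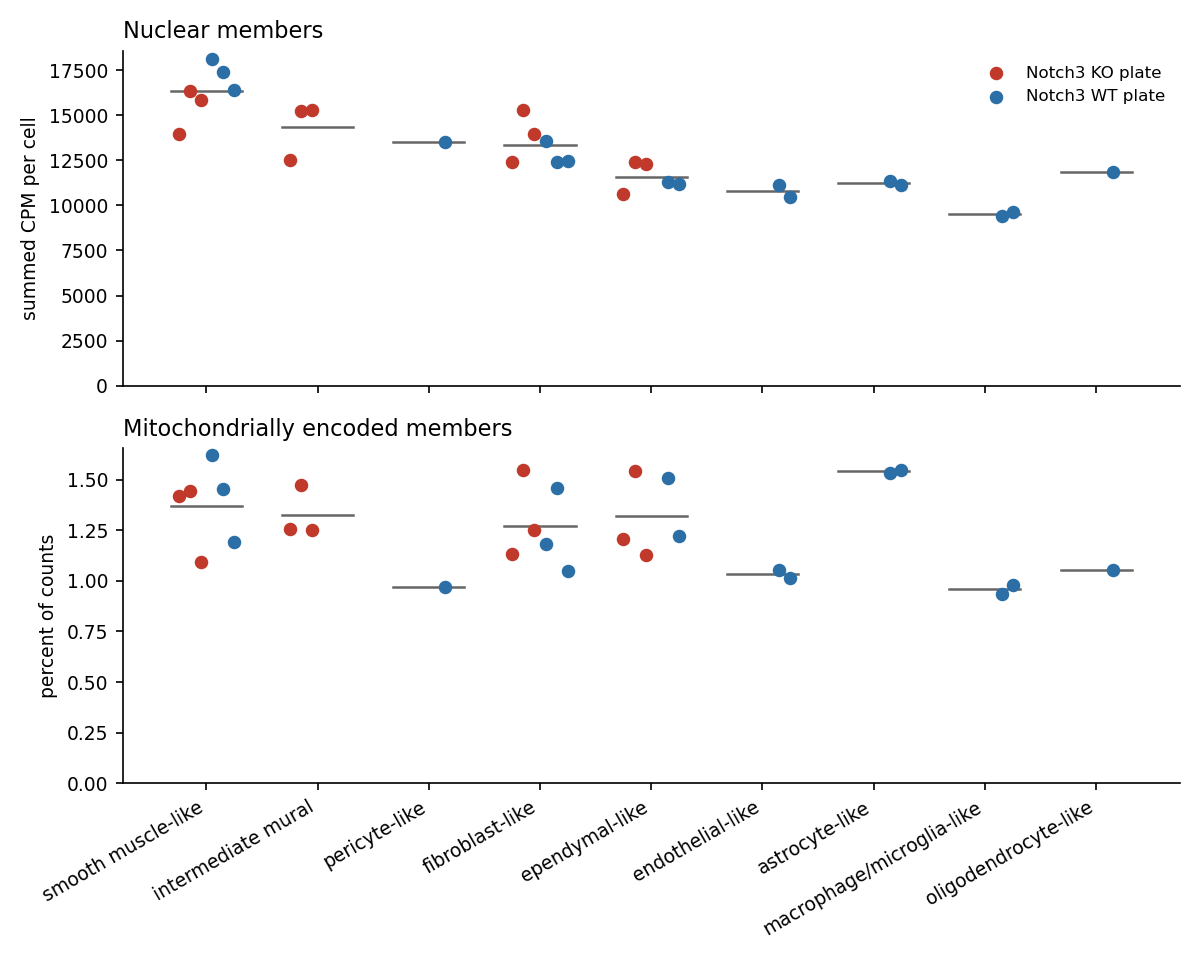
Summed CPM of the nuclear members (upper panel) and the percentage of counts on the mitochondrially encoded members (lower panel) by cell class, 1 point for each plate with at least 10 cells of the class, KO plates red and WT plates blue, bars at the mean over plates. The smooth muscle-like plates sit between 13983 and 18144 CPM in the upper panel, and the macrophage/microglia-like plates at 9403 and 9637 CPM. In the lower panel the astrocyte-like plates, at 1.53% and 1.55%, lie within the smooth muscle-like range of 1.09% to 1.62%.

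The mitochondrial share did not follow the nuclear sum across classes. Relative to smooth muscle-like cells of the same plates it was 1.17 (1.05 to 1.30) in astrocyte-like and 0.998 (0.848 to 1.07) in ependymal-like cells, although their nuclear sums were 0.666 and 0.724 times the reference. It was 0.786 and 0.727 in endothelial-like and macrophage/microglia-like cells. Depth differed between classes. Median counts on plates 468 and 469 were 236071 and 334178 in astrocyte-like and 286021.5 and 383620 in smooth muscle-like cells. In macrophage/microglia-like cells they were 242811 and 339526. Within plates the mitochondrial share was lower in deeper smooth muscle-like cells, and the part of depth in these class ratios was not tested. The genes around the respiratory chain differed in their own ways. In astrocyte-like cells 4 of 15 measured glycolysis genes were at least 2-fold higher on both plates, against 19.6% of all genes. The median log2 ratio of the glycolysis genes was 0.15. Their sum was 1.93 times (1.85 to 2.01) the smooth muscle-like level, but the list holds Aldoc, which is also 1 of the 6 astrocyte markers that define the class. In endothelial-like cells the genes of ATP/ADP exchange and ATP synthase inhibition (Slc25a3, Slc25a4, Slc25a5 and Atpif1) were at 0.384 times the smooth muscle-like level. The tricarboxylic acid cycle genes were at 0.498 times that level, and both were lower than the 0.640 of the nuclear members. In ependymal-like cells the complex I assembly factors summed to 1.48 times (1.02 to 2.61) the smooth muscle-like level. For 2 other lists the sum and the median differed in sign there. The 5 electron carriers outside the name rule summed to 1.35 times (1.12 to 1.52) with a median log2 ratio of -0.56. The 12 complex IV assembly genes summed to 1.22 times (1.12 to 1.32) with a median of -0.13. Each list had 1 gene at least 2-fold higher and 1 lower on every plate, against 14.9% and 9.75% of all genes.

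Gene by gene, a member was counted as differing between classes where it was at least 2-fold apart in every shared plate on the log2(CPM + 1) scale. In fibroblast-like cells 1 of 96 members was higher and 2 were lower, against 6.94% and 5.34% of all measured genes. In ependymal-like cells 0 of 95 were higher and 4 lower (all genes 14.9% and 9.75%). In endothelial-like cells 1 of 95 was higher and 10 lower (14.0% and 13.6%), in astrocyte-like cells 1 and 6 of 95 (19.6% and 15.4%), and in macrophage/microglia-like cells 1 and 16 of 93 (17.5% and 21.2%). In intermediate mural cells the counts were 0 and 0 of 95 (1.49% and 1.95%), and in the 11 oligodendrocyte-like cells of plate 468 they were 4 and 14 of 94 (27.3% and 32.9%). In each of these classes the share of members that differed was below that of all genes, in both directions. The median member nevertheless lay lower than the median gene, at a log2 ratio of -0.49 against 0.05 in endothelial-like, -0.42 against 0.06 in astrocyte-like, -0.73 against -0.25 in macrophage/microglia-like, -0.35 against -0.11 in ependymal-like and -0.26 against -0.07 in fibroblast-like cells.

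Cox4i2 and Ndufa4l2 were counted as lower in fibroblast-like, ependymal-like, astrocyte-like, endothelial-like and macrophage/microglia-like cells. Cox4i2 (chr2:152754173-152765037), the alternative isoform of complex IV subunit 4, was measured in smooth muscle-like cells at 28.6 (KO plate 043), 45.2 (467), 49.3 (471), 58.2 (WT plate 044), 92.0 (468) and 82.3 CPM (469). In fibroblast-like cells it ranged from 0.174 to 9.28 CPM over the 6 plates, in ependymal-like cells from 0 to 2.49, in endothelial-like cells it was 10.3 and 12.2, in astrocyte-like cells 1.22 and 1.53, and in macrophage/microglia-like cells it was at 0 on both plates. Pericyte-like cells of plate 468 had 373 CPM, against 92.0 in smooth muscle-like cells of that plate, so that Cox4i2 was highest in the pericyte-like cells, lower in the other mural classes and at 12.2 CPM or less elsewhere. Its partner Cox4i1, the isoform found in most tissues, ran from 347 to 491 CPM in smooth muscle-like, 339 to 495 in fibroblast-like and 290 to 445 CPM in ependymal-like cells, overlapping between classes, and was 234 CPM in the pericyte-like cells. Per length, Cox4i2 made up 11.5 ± 3.6% (SD, 6 plates) of the pair in smooth muscle-like, 14.4 ± 3.6% (3 plates) in intermediate mural, 62.0% in pericyte-like, 3.11% in endothelial-like, 0.608% in fibroblast-like and 0.385% in astrocyte-like cells. The intermediate mural share comes from KO plates only, and on these (043, 467 and 471) it was 10.4%, 15.9% and 17.0%, against 7.80%, 8.62% and 9.38% in smooth muscle-like cells, higher on each plate without overlap.

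Ndufa4l2 (chr10:127514967-127517154), the hypoxia-induced relative of the complex IV subunit Ndufa4, had 52.9, 106 and 70.7 CPM in smooth muscle-like KO cells (plates 043, 467 and 471) and 74.7, 127 and 128 CPM on the WT plates. The intermediate mural cells of the KO plates had 125, 158 and 240.3 CPM and the pericyte-like cells 540.0 CPM. Ndufa4 went the other way, with 118, 169 and 192 CPM in smooth muscle-like KO cells, 26.7, 103 and 42.7 CPM in their intermediate mural cells and 18.2 CPM in pericyte-like cells against 239 in smooth muscle-like cells of plate 468. The share of Ndufa4l2 within the pair was higher in that order, at 24.8 ± 4.2% (6 plates), 68.0 ± 15.7% (3 plates) and 95.1% (1 plate), and was 6.26% in endothelial-like and 4.54 ± 4.11% in fibroblast-like cells. On the 3 KO plates that held both classes, the share was 75.4%, 50.0% and 78.6% in intermediate mural cells and 22.7%, 29.1% and 19.4% in smooth muscle-like cells. The mural classes were cut from smooth muscle and pericyte markers, and these values rest on 32, 21 and 20 intermediate mural cells and 12 pericyte-like cells.

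**Figure D3:**
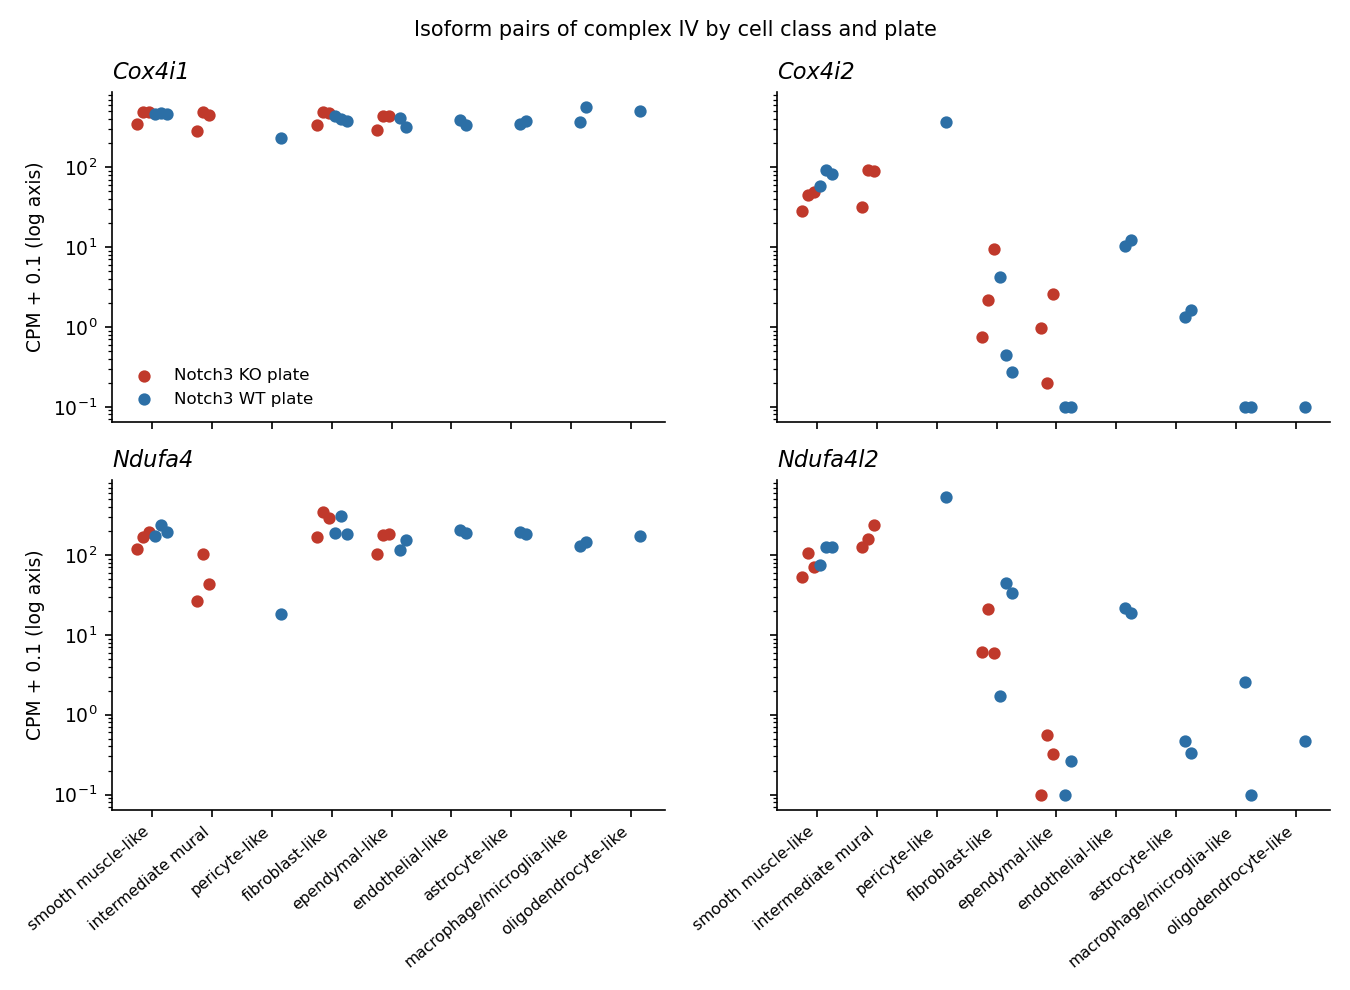
CPM + 0.1 (log axis) of Cox4i1, Cox4i2, Ndufa4 and Ndufa4l2 by cell class, 1 point for each plate with at least 10 cells, KO plates red and WT plates blue, points at 0.1 standing for 0 CPM. Cox4i1 stays between 234 and 568 CPM in the classes shown, while Cox4i2 runs from 0 to 373 CPM and Ndufa4l2 from 0 to 540.0 CPM with the mural classes on top.

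In the mural classes and astrocyte-like cells the shares of cells with at least 1 count followed the same order. Cox4i2 had a count in 46.9% (95% exact Clopper-Pearson interval 44.0% to 49.9%) of smooth muscle-like cells, 76.0% (54.9% to 90.6%) of pericyte-like cells and 4.28% (2.36% to 7.08%) of astrocyte-like cells, a type not known for it, at median depths of 290466, 307070 and 263819 counts. With every cell thinned to 50000 counts the shares were 42.4%, 76.0% and 2.45%. None of 42 macrophage/microglia-like cells had a count, which allows a share of up to 7.14% (3 cells of the total). Ndufa4l2 had a count in 51.9% of smooth muscle-like, 88.0% of intermediate mural, 96.0% of pericyte-like and 4.28% of astrocyte-like cells, and 48.5%, 86.7%, 92.0% and 0.306% after thinning. Fibroblast-like and endothelial-like cells departed from the order of the pair shares. Cox4i2 had a count in 10.6% and 9.15% of them (4.23% and 8.54% thinned), and Ndufa4l2 in 19.7% and 16.5% (16.2% and 12.2% thinned). The intervals treat cells pooled over plates and genotypes as independent draws. They cover the sampling of cells only, not differences between plates, genotypes or animals. The reads carry no molecular identifiers.

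Other tissue isoforms separated the classes less. Cox6b2 (chr7:4751792-4753094), known as the testis isoform of complex IV subunit 6b, had 12.3, 32.9 and 70.0 CPM in fibroblast-like cells of the KO plates and 17.1, 24.5 and 34.3 CPM on the WT plates, against 1.22 to 5.37 CPM in smooth muscle-like cells. It was the member counted as higher in fibroblast-like cells, by 6.77-fold (3.27 to 11.5 over plates). A count was found in 56.3% of fibroblast-like (44.4% thinned), 39.1% of ependymal-like (25.6%), 8.58% of smooth muscle-like (6.72%) and 0.610% of endothelial-like cells. Per length it made up 14.7 ± 5.6% of the Cox6b pair in fibroblast-like and 1.96 ± 0.73% in smooth muscle-like cells. Cox7a1, the heart and muscle isoform of subunit 7a, made up 1.64 ± 0.82% of its group in smooth muscle-like, 8.31 ± 3.71% in fibroblast-like and 7.41 ± 3.05% in ependymal-like cells, with every smooth muscle-like plate below every fibroblast-like plate. Cox6a2 and Cox8b, likewise isoforms of heart and skeletal muscle, reached 0.094 and 0.14 CPM at most on any smooth muscle-like plate, and Cox7b2 stayed under 0.1 CPM there and had 3.72 and 1.90 CPM in astrocyte-like cells, from 9 of 327 cells. Cox8c is not analysed here. Of the 3 genes for the c-ring of ATP synthase, which yield the same mature protein, Atp5g3 supplied 60.7 ± 3.4%, Atp5g2 22.6 ± 2.7% and Atp5g1 16.7 ± 3.5% of the sum per length in smooth muscle-like cells, and Atp5g3 39.9% (39.1% and 40.7%) in endothelial-like cells.

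Sdhc, like Sdhd a membrane anchor of complex II, was counted as lower in 4 of the 5 classes compared on more than 1 plate outside the mural cells. It had 340.3, 443 and 378 CPM in smooth muscle-like KO cells and 412, 557 and 446 CPM on the WT plates, and 119 to 167 CPM over the 5 ependymal-like plates. On plates 468 and 469 its mean was 502 CPM in smooth muscle-like, 110.1 in endothelial-like, 112 in astrocyte-like and 121 CPM in macrophage/microglia-like cells. Fibroblast-like cells, at 153 to 204 CPM, were also below every smooth muscle-like plate, but not by 2-fold in each. Ndufa5, an accessory subunit of complex I, had 18.6 to 37.0 CPM in ependymal-like cells, against 89.5 to 136 in smooth muscle-like cells. Other accessory genes ran against the class: in ependymal-like cells Ndufb5 had 289 to 377 CPM against 113 to 159 in smooth muscle-like cells, and the assembly factor Ndufaf3 101 to 117 against 29.2 to 56.8, mean ratios of 2.37 and 2.43 that missed 2-fold on plate 469. In pericyte-like cells Ndufb5 was at 3.11 CPM against 153 in the smooth muscle-like cells of plate 468. There 7 of 92 members were higher and 11 lower (27.7% and 27.4% of all genes), from 12 cells. Atp5sl, named for its likeness to an ATP synthase factor, was the member higher in astrocyte-like, endothelial-like and macrophage/microglia-like cells, at 38.4, 40.6 and 39.6 CPM against 12.7.

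The comparison of KO with WT plates asked whether the loss of Notch3 went with other levels of these genes, and plate 043 has to be named first. The median nuclear member of smooth muscle-like cells lay 0.31 below its 6-plate mean (log2) on KO plate 043 and 0.04 to 0.11 above it on the other 5 plates, while the median of all genes stood at 0.01 on plate 043. The nuclear sum was 13983 (043), 16333 (467) and 15827 CPM (471) in KO, against 18144 (044), 17401 (468) and 16389.6 CPM (469) in WT. The KO plates were lower without overlap, though plates 467 and 469 were close. The means were 15381 ± 1237 and 17311 ± 881 CPM (SD, 3 plates each), a ratio of 0.887. Between the earlier plates, 043 and 044 (the label numbers are all that dates them), the log2 difference was -0.38, and between the 4 later plates it was -0.07. Notch3 itself was at 192 CPM on WT plate 044, nearer to the KO plates than to WT plates 468 and 469. By complex the KO over WT ratio was 0.894 for I, 0.887 for II, 0.864 for III, 0.907 for IV and 0.861 for V. Complexes I, II and III had no overlap between plates, and IV and V did. The complex I assembly factors were higher in KO (244 ± 21 against 209 ± 56 CPM), with overlap. Their sum was 267 (043), 228 (467) and 237 CPM (471) in KO. In WT it was 243 (044), 144 (468) and 238 CPM (469), so the higher KO mean rested on WT plate 468. The mitochondrial share was 1.32 ± 0.20% in KO against 1.42 ± 0.22% in WT, with overlap.

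Of the 95 measured members 11 had all KO plates below all WT plates, against 4.71% of 10053 measured genes. None had all KO plates above the WT plates (all genes 5.55%), and 0 were past 2-fold without overlap (all genes 2.77%). The median difference was -0.12 (log2) for the members and 0.04 for all genes. Below 0 were 70 of 95 members and 4579 of the 10053 measured genes. By role, all 8 measured nuclear genes of complex III, all 4 of complex II, all 7 nuclear genes of the catalytic core of complex I and all 9 mitochondrial genes were below 0. All 7 assembly factors were above 0, with a median of 0.34. Each assembly factor except Ndufaf1 had its lowest WT value on plate 468, which held 32 smooth muscle-like cells. Without plate 043 the median of the nuclear members was 0.01 against 0.09 for all genes, with 14 members lower and 17 higher without overlap (975 and 1271 of 10127 genes). Without WT plate 469, 25 members were lower (956 of 10044 genes), without KO plate 467 20 (739 of 10040) and without WT plate 044 19 (1367 of 10113), so the counts of all genes were also higher with fewer plates. Of the 11 members named below, Ndufa7, Sdhd, Ndufb5, Ndufc2, Atp5a1 and Ndufv1 each overlapped under at least 1 other way of processing, such as TMM scaling of summed counts for Atp5a1 and Ndufv1.

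The 11 members were 7 nuclear complex I genes, Sdhd, Cox4i2 and a pair from complex V. Cox4i2, with the plate values given above, had the lowest difference, -0.91 (log2; KO mean 41.1, WT mean 77.5 CPM), and was -0.87 between the later plates alone. The higher WT values, of plates 468 and 469, came from 32 and 57 smooth muscle-like cells, while plate 044 held 333. The Cox4i2 share of the Cox4 pair was 7.80%, 8.62% and 9.38% on the KO plates and 11.5%, 16.5% and 15.2% on the WT plates, again without overlap. The 6 pericyte markers, a type that holds much more Cox4i2, summed to 4383, 4384 and 3665 CPM in smooth muscle-like KO cells and 3189, 2633 and 3327 CPM on the WT plates, but the 6 markers did not go 1 way. Vtn, Kcnj8 and Abcc9 were higher on the KO plates without overlap, Rgs5 and Higd1b overlapped, and Atp13a5 was lower without overlap, at 20.6 CPM or less on the KO plates against 45.6, 74.1 and 65.2 CPM. Of the 6 fibroblast markers 1, Col1a2, reached 10 CPM, at 280.1, 309 and 312 CPM on the KO plates and 212, 235 and 236 CPM on the WT plates. The part of other cell types in the KO differences was not tested. Ndufa4l2 had a difference of -0.53, but the KO value of 106 CPM on plate 467 lay above the WT value of 74.7 CPM on plate 044.

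Ndufs1 (chr1:63143596-63176833, minus strand), the largest core subunit of complex I and carrier of iron-sulphur clusters, had 244, 179 and 186 CPM on KO plates and 305, 300.4 and 292 CPM on the WT plates, a difference of -0.57. Ndufs7 (chr10:80249121-80256794), which holds the last cluster before ubiquinone, had 187, 202 and 216 CPM against 254, 306 and 252 CPM, a difference of -0.42. For Ndufs1 the 3 WT plates were close together and plate 043 was the KO plate nearest to them, while for Ndufs7 it was the KO plate farthest away. Sdhd (chr9:50596357-50603812, minus strand) had 92.2, 105 and 127.8 CPM on KO plates and 128.2, 144 and 149 CPM on the WT plates, so the groups only just failed to overlap at a difference of -0.38. Its fellow anchor Sdhc (-0.28) overlapped, as did the catalytic pair: Sdha, the flavoprotein, had 684, 476 and 504 CPM against 794, 486 and 490.2, with both earlier plates high, and Sdhb had 206, 252 and 246 CPM against 265, 238 and 247.

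The other members without overlap were smaller in size. In complex I they were the accessory subunits Ndufc2 (-0.32), Ndufb9 (-0.28), Ndufb5 (-0.19) and Ndufa7 (-0.18), and the NADH-binding core subunit Ndufv1 (-0.18). In complex V they were Atp5g3 (-0.30) and Atp5a1 (-0.24), the alpha subunit, which had 1182, 1118 and 962 CPM on KO plates and 1425, 1239.9 and 1186 CPM on the WT plates. At the other end stood the assembly factors Ndufaf1 (0.69), Ndufaf2 (0.68), Ndufaf4 (0.36) and Ndufaf5 (0.34) and the subunit Ndufb4 (0.27), all with overlapping plates. Ndufaf1 had 26.7, 22.4 and 24.2 CPM on KO plates and 24.1, 32.0 and 3.66 CPM on the WT plates, and its difference was -0.18 without plate 469. Ndufaf4 had 68.6, 72.1 and 51.0 CPM against 69.7, 27.7 and 61.2, and was -0.05 without plate 468. The positive differences of these 2 assembly factors thus rested on 1 low WT plate each, plates 469 and 468, which held 57 and 32 smooth muscle-like cells.

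**Figure D4:**
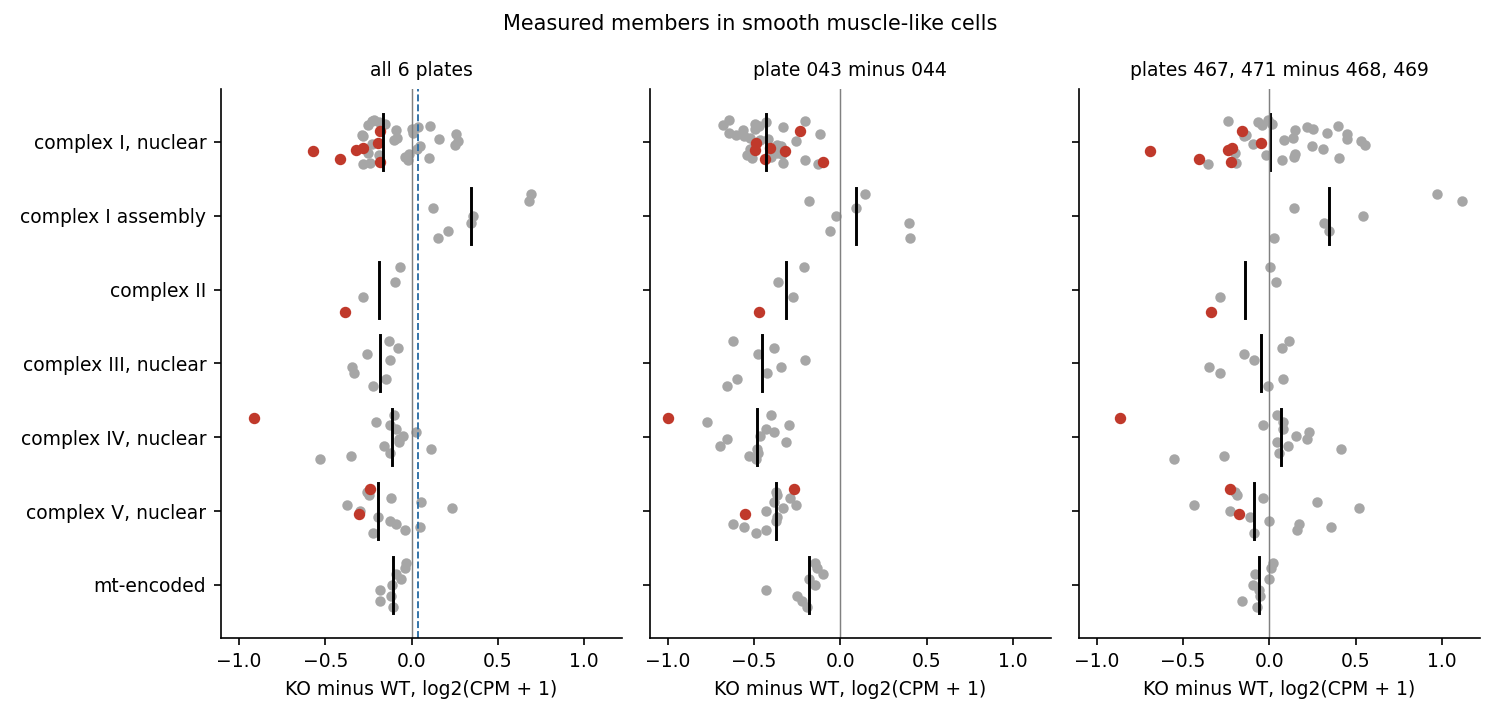
KO minus WT difference in log2(CPM + 1) of each measured member in smooth muscle-like cells (horizontal), grouped by complex, over all 6 plates (left), the earlier plates (middle) and the later plates (right). Red points are the 11 members whose plates do not overlap over all 6 plates, black bars are group medians and the dashed line in the left panel is the median of all genes, 0.04. Most groups stand to the left of 0 in the middle panel and straddle it in the right panel, where Cox4i2 keeps a difference of -0.87.

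Transcript length went along with the low plate. The nuclear members were short, with a median of 861 bases and 51 of 85 (60.0%) at or under 1000 bases, against a median of 2860 bases and 7.56% of the 9535 other measured genes. On plate 043 the members of up to 500, 501 to 700 and 701 to 1000 bases had medians of -0.51, -0.33 and -0.40 relative to the 6-plate mean, and those of 1001 to 2000 and 2001 to 4000 bases -0.08 and 0.00. Other genes of the same lengths had -0.28, -0.29, -0.13, 0.06 and 0.13 on that plate, so short genes of all kinds were low there, and the members lower still in all 5 length ranges. Length went with level at the long end too: other genes over 4000 bases had -0.14 on plate 043 and -0.20 on WT plate 044. On the 4 later plates the members up to 700 bases were at or above 0 apart from plate 469. The KO minus WT difference of the members was -0.10, -0.07, -0.12, -0.17 and -0.235 in the 5 ranges, shortest first. Without plate 043 it was 0.09, 0.09, -0.01, -0.05 and -0.22, the last from 6 members. Other genes of the same lengths had 0.01, 0.06, 0.00, 0.03 and 0.04. Without plate 043 these other genes had 0.15, 0.19, 0.09, 0.03 and 0.02. With each difference taken relative to other genes of its length, the median of the nuclear members over all plates was -0.14. Plate 043 cannot be told apart from its genotype among the earlier plates, where it is the only KO plate.

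**Figure D5:**
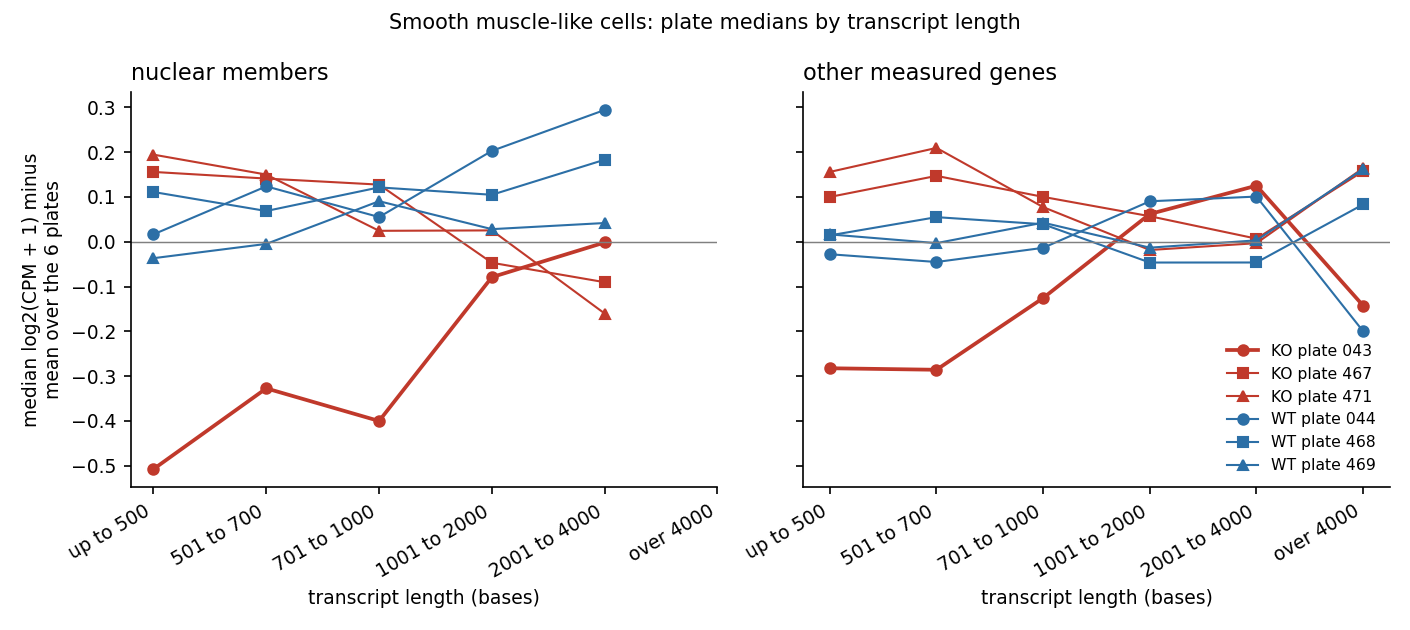
Median difference of log2(CPM + 1) from the 6-plate mean (vertical) by transcript length in bases (horizontal), for nuclear members (left) and other measured genes (right) in smooth muscle-like cells, 1 line for each plate, KO red and WT blue. KO plate 043 (thick line) lies at -0.51 for members of up to 500 bases and at 0.00 for those of 2001 to 4000 bases, and in the left panel the other plates lie between -0.16 and 0.29.

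Genes of the neighbouring pathways were taken from lists. Of all 10053 measured genes, 4.71% were lower in KO without overlap and 5.55% higher, so counts of 0 on lists this short say little. Of 5 electron carriers outside the name rule 3 were lower in KO without overlap: Cyc1, the cytochrome c1 of complex III (-0.32), Cycs, cytochrome c (-0.37), and Etfa (-0.44). Cycs had 79.3, 80.1 and 83.5 CPM on KO plates and 113, 106 and 96.5 CPM on the WT plates. Of 4 genes of ATP/ADP exchange and ATP synthase inhibition, 2 were lower, the phosphate carrier Slc25a3 (-0.18) and the ATP/ADP carrier Slc25a4 (-0.27). Of 11 tricarboxylic acid cycle genes all were below 0 and 5 were lower without overlap, among them Cs (-0.46), Idh3b (-0.47), Fh1 (-0.36) and Mdh2 (-0.25). Citrate synthase (Cs) had 370.5, 309.9 and 292 CPM against 488, 484 and 374 CPM. The sum of this list was -0.25 (log2) between the earlier plates and -0.33 between the later ones, unlike that of the nuclear members. Its KO and WT plates overlapped, with 3065 CPM on KO plate 043 and 3039 CPM on WT plate 469. Of 15 measured glycolysis genes 1 (Aldoa, -0.17), of 11 genes of mitochondrial biogenesis 0 and of 12 complex IV assembly genes 0 were lower, and none on any list was higher.

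In fibroblast-like cells the direction was not shared. Of 94 measured members 1 was lower without overlap (Atp5sl, -1.48; all genes 3.58%) and 1 higher (Ndufs1, 1.05; all genes 5.13%), both past 2-fold (all genes 5.23%), and the median was 0.18 against 0.12 for all genes. Ndufs1 had 171, 149.8 and 164 CPM on KO plates and 98.4, 97.3 and 48.7 CPM on the WT plates, with 13 to 52 cells a plate. Atp5sl had 18.1, 10.4 and 24.5 CPM against 31.0, 49.0 and 74.1 CPM. In ependymal-like cells, on 3 KO plates and WT plates 468 and 469, 4 of 94 members were lower (all genes 12.0%) and 6 higher (13.3%), with 1 past 2-fold (14.0%). Ndufs1 was lower there, at 116, 145 and 110.1 CPM against 227 and 203 CPM (-0.80), with Ndufab1 (-0.56), Sdhb (-0.53) and Ndufb8 (-0.33). Cox6b2 was the one past 2-fold, at 12.2, 24.4 and 18.1 CPM against 1.21 and 7.82 CPM, and Ndufs4, Ndufb2, Ndufb10, Atp5l and Ndufc2 were higher by 0.74, 0.73, 0.53, 0.35 and 0.32. The smooth muscle markers in ependymal-like cells summed to 1329, 1985 and 1537 CPM on KO plates and 234 and 414 CPM on the WT plates, and their part in these differences was not tested.

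Within plates, the mitochondrial and nuclear members did not move as one across smooth muscle-like cells. Spearman correlations of the mitochondrial percentage with the nuclear sum ran from -0.12 (plate 468, 32 cells) to 0.36 (plate 044, 333 cells), and both measures share the cell's total as denominator. The mitochondrial percentage was lower in deeper cells, with correlations of -0.81 to -0.52 with the cell's counts, while that of the nuclear sum was -0.16 to 0.09. On plate 044 the median mitochondrial percentage was 1.82% in the shallower cells (median 218442 counts) and 1.31% in the deeper cells (330725), with 3908 and 4605 mitochondrial counts. Mitochondrial counts were thus higher in deeper cells by less than the total. The low shares of plates 471 (1.09%) and 469 (1.19%) went along with the deepest smooth muscle-like cells, with medians of 352918.5 and 383620 counts, and the part of depth in them was not tested.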

How the data were processed

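Single sorted cells were profiled by Smart-seq2. The authors deposited 1 table of unnormalised counts, with a row for each gene symbol and a column for each cell. Per the submitters' processing notes the tools were TopHat2 2.1.1, SAMtools 0.1.18 and featureCounts of Subread 1.4.6-p5, with mouse build GRCm38 (mm10). The handling of multiply placed reads is not given in the sources used here.

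Cells with at least 50000 counts and 1000 genes were scaled to CPM. Each of 14 lists of 6 markers gave a score, the mean log2(CPM + 1). A class needed a score of 3 and a lead of 2, and cells with smooth muscle and pericyte scores both at 3 or more and less than 2 apart were called intermediate mural. Doublets were not removed by a caller, and cells without a lead stayed unassigned. Class means were taken per plate with at least 10 cells, and genes with a mean of at least 10 CPM counted as measured. Differences are between plate means on the log2(CPM + 1) scale. No animals were named, so no test was run, and plates of 1 genotype may be technical repeats. Members were called apart where the KO and WT plates did not overlap.

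Named genes were all mitochondrial members, the isoform groups, Sdha to Sdhd, members past 2-fold with plates apart, the 5 highest and 5 lowest KO differences in smooth muscle-like cells, the 3 highest and 3 lowest against each class, and the extremes per complex. The 11 members with plates apart, and other genes named, were added after their values were seen. The members and lists were chosen with earlier results of these data known. The values of 1 gene of these lists are not reported here. Transcript lengths and copies came from GENCODE M21 and upstream sequences from RefSeq (GRCm38.p6). The calculations were tested on simulated data and repeated under 22 alternatives, 3 of them chosen after seeing the data. Tools were Python 3.11.15, numpy 2.4.6, pandas 2.3.3, scipy 1.17.1, scikit-learn 1.9.0, leidenalg 0.10.2, igraph 0.11.9, and R 4.3.3 with edgeR 4.0.16 for TMM factors only.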

Additional observations from a re-analysis of the deposited data

Results flagged for a closer look

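Ndufs1, a core subunit of complex I, differed between KO and WT in opposite directions in different classes, with plates that did not overlap in any of them. The difference (log2) was -0.5688 in smooth muscle-like and -0.8017 in ependymal-like cells and 1.0451 in fibroblast-like cells. Ndufc2, an accessory subunit of complex I, was at -0.3237 in smooth muscle-like and 0.3238 in ependymal-like cells. The difference between classes was not tested. Of all genes measured in both classes, 0.402% (37 of 9209) were opposite and without overlap between smooth muscle-like and fibroblast-like cells, 1.17% between smooth muscle-like and ependymal-like cells and 0.926% between fibroblast-like and ependymal-like cells, and 1 of 93 members was in each pair of classes. Ndufs1 KO minus WT, ependymal-like, was -0.4953 with a score lead of 1 and -0.1741 with Leiden clusters in place of the classes, and Ndufs1 KO minus WT, fibroblast-like, was 2.4761 with a score lead of 3.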

How the results depend on the processing

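No paired analysis was possible because replicate numbers name cells, not animals. The cause of each change below was not tested. Between the earlier plates, with 1 plate per genotype so that every gene was apart, the nuclear sum differed by -0.3758 (log2) and the nuclear median by -0.4138, with 90 members lower and 5 higher (4804 and 4903 of 9707 genes), and Ndufaf2 (-0.1849), Ndufaf4 (-0.0231) and Ndufb4 (-0.2569) reversed. Between the later plates the sum differed by -0.0709 and the median by 0.04, with 22 lower, 24 higher (1870 and 2083 of 10167 genes) and 1 past 2-fold. Leaving out 1 plate at a time gave -0.1976 to 0.0097 for the nuclear median (positive without KO plate 043), -0.2407 to 0.0364 for the mitochondrial median and -0.2177 to 0.0099 percentage points for the mitochondrial share (both positive without KO plate 471), 14 to 25 members lower (707 to 1367 of all genes), 0 to 17 higher (802 to 1387) and 0 to 1 past 2-fold. It gave -0.182 to 1.2299 for Ndufaf1, -0.0467 to 0.6026 for Ndufaf4 and -0.0274 to 0.6039 for Ndufaf5. With Leiden clusters 1 member was higher and 1 past 2-fold, and Ndufc2 in ependymal-like cells was -0.3203. With cells of 200000 to 400000 counts 1 member was past 2-fold. With TMM factors the nuclear sum against smooth muscle-like cells was -0.6721 in ependymal-like, -0.6801 in astrocyte-like and -0.477 in fibroblast-like cells, and 16 members were lower in KO (470 of 10250 genes), 9 of them among the 11. The nuclear member total, endothelial-like over smooth muscle-like, was -0.6389 without the cell filter, -0.6661 with a lead of 1, -0.6086 with Leiden clusters, -0.6412 with mural cells merged and -0.6788 with cells of 200000 to 400000 counts. Depth limits the low isoforms, and the 12 pericyte-like cells limit that class.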
